A study of Mus musculus with 8 samples.

Results

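Promoters of long intergenic noncoding RNAs (lincRNAs) that lie away from protein-coding genes were examined for histone H3 lysine 4 trimethylation (H3K4me3) in mouse embryonic stem cells (mESCs) and in the pancreatic islet-like endocrine cells (PILECs) differentiated from them. A promoter was taken as 1 kb either side of the annotated 5′ end of an autosomal gene of type lincRNA, on mouse genome build mm9, and was kept when no annotated protein-coding transcript started within 5 kb. The rule kept 468 of 1232 autosomal lincRNA genes (1273 on all chromosomes), and it used the annotation alone, with no H3K4me3 value. The other 764 autosomal lincRNA genes start within 5 kb of a protein-coding transcription start site (TSS) and served, with 21418 protein-coding genes, for comparison.

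The 4 conditions were wild-type (wt) mESCs, the TC-1 line; mESCs null for Men1, the 3.2N line, called menin-null here; wt PILECs; and menin-null PILECs. All were of 129S6/SvEvTac background per the labels. The study asked which H3K4me3 depends on menin, the product of Men1 and a subunit of MLL1 and MLL2 methyltransferase complexes, in stem cells and in islet-like cells. Each genotype is 1 cell line, so genotype cannot be told apart from line. The mESCs had been kept on irradiated embryonic fibroblast feeders and then passaged without them before chromatin was taken. Each condition has 1 H3K4me3 library and 1 input library of sonicated chromatin without antibody, and no replicates. Intervals therefore cover counting error only, and each comparison is between libraries and not between conditions.

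LincRNAs are long transcripts that do not encode a protein and whose genes do not overlap the exons of protein-coding genes. Many are spliced and polyadenylated like messenger RNAs, and H3K4me3 lies over their active promoters as it does over those of protein-coding genes. The mark is placed by SET1 and MLL family complexes and is found at most CpG-rich promoters whether or not the gene is strongly transcribed. Their expression is known to be more restricted to a cell type than that of messenger RNAs.

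The stretch around the annotated 5′ end is shown for 5 of these promoters, each running 5′ to 3′ along the strand of the gene from 150 bases before the 5′ end to 50 after it, with every CG dinucleotide in capitals. Meg3 and Airn, the noncoding RNAs of a pair of imprinted loci, are shown because they gave the lowest menin-null over wt ratios in mESCs. Gm9918 is shown for the stage comparison, as a promoter marked in mESCs and not in PILECs. Pvt1, the neighbour of Myc, is shown for both comparisons, and 5430416N02Rik for the highest mean level. The stretches were read from the mm9 genome.
Meg3, chr12:110779061-110779260, plus strand: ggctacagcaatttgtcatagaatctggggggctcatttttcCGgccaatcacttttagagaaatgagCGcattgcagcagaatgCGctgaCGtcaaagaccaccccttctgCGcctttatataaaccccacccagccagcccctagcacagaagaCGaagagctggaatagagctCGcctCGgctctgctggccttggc
Airn, chr17:12934027-12934226, plus strand: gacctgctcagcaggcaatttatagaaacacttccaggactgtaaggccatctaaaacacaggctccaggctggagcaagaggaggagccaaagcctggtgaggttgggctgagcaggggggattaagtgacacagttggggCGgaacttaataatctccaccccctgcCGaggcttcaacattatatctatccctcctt
Pvt1, chr15:61869392-61869591, plus strand: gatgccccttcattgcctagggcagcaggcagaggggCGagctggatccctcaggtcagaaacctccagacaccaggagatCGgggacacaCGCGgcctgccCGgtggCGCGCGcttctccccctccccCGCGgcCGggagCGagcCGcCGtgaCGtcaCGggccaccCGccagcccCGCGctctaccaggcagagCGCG
Gm9918, chr15:102100844-102101043, plus strand: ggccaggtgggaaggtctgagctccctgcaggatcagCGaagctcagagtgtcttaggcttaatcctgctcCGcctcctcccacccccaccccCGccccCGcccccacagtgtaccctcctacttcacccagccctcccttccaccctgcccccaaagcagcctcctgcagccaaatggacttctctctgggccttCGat
5430416N02Rik, chr5:100858486-100858685, minus strand: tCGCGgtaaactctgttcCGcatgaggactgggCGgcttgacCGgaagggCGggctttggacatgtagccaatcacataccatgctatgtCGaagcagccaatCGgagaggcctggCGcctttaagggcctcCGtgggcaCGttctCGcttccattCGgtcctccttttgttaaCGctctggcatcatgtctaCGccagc
The 5 stretches held 8 CG dinucleotides for Meg3, 2 for Airn, 21 for Pvt1, 5 for Gm9918 and 15 for 5430416N02Rik.

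The H3K4me3 libraries held 2432377 (wt) and 3517028 (menin-null) tags, or reads placed on the genome, in mESCs, and 18773635 (wt) and 17682677 (menin-null) in PILECs, and the inputs held between 3744616 and 19016697. Levels are given as tags per 1000000 tags of the library (RPM). Over Men1 exons 3 to 8 the inputs held 17 and 22 tags in the wt mESC and wt PILEC libraries and 0 in both menin-null libraries, as the genotype labels say. Marker levels were taken at the annotated start of the gene with the highest level in each library, unlike the lincRNA levels. Promoters of all 8 mESC markers tried were at 4 RPM or more in both mESC libraries and 3 of the 8 in both PILEC libraries. The promoters of the islet hormone genes Ins1, Ins2, Gcg and Iapp stayed at or below 1.24 RPM in both PILEC libraries. The summed level of all 11 islet markers was 83.5 (wt) and 92.4 RPM (menin-null) in mESCs and 69.6 and 75.5 RPM in PILECs, lower in both PILEC libraries than in the mESC library of the same genotype. Of 6 fibroblast and feeder markers 4 reached 4 RPM in each mESC library and 5 in each PILEC library, and their summed level lay between 54.2 and 68.2 RPM in the 4 libraries. The 5 muscle markers summed to 20.97 (wt) and 16.8 RPM (menin-null) in mESCs and 4.90 and 5.54 RPM in PILECs, where none reached 4 RPM, and the 4 liver and endoderm markers to 7.67 to 13.1 RPM in the 4 libraries. The part of these markers in the stage differences given further on was not tested. All 3 neural marker promoters that could be placed, of 5 tried, exceeded 4 RPM in every library, with sums of 50.2 and 62.8 RPM in mESCs and 77.9 and 72.4 RPM in PILECs.

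The 468 promoters were spread over all 19 autosomes, with 11 to 35 on each. Their median distance from the nearest protein-coding TSS was 27.3 kb, and 152 lay over 50 kb away. Of the 468, 136 started inside the body of a protein-coding gene, 126 of them on the opposite strand only. A single transcript was annotated for 359, and 12 had another member within 2 kb. Gene type was used as the annotation gave it, also where, as for Fam150a and Ppp1r3e, the symbol is that of a protein-coding gene. At the limit of the rule, Gm17638, Gm12898 and Gm17591 lay 4952, 4957 and 4964 bp from a protein-coding TSS and were left out, with at most 2.27 RPM in any H3K4me3 library. Gm17327, 4931431C16Rik and Gm17554 lay 5039, 5057 and 5066 bp away and were kept, with at most 2.21 RPM.

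A minority of the lincRNA promoters carried H3K4me3, and more did in the mESC than in the PILEC libraries. A promoter was called marked at 4 RPM or more and at least 3 times its own input, with 0.5 RPM added to both. By this rule 150 of 468 promoters (32.1%) were marked in wt and 143 (30.6%) in menin-null mESCs, and 113 (24.1%) in wt and 102 (21.8%) in menin-null PILECs. Over all 25087 autosomal protein-coding, lincRNA and processed-transcript promoters the share was 50.8% in wt and 51.5% in menin-null mESCs, and 50.8% in wt and 50% in menin-null PILECs. Of the lincRNA promoters within 5 kb of a protein-coding TSS, 73.8% to 78.1% were marked, and of the 2437 processed-transcript promoters, another noncoding class, 14.9% to 15.5%. Among protein-coding promoters the share was 54.5% and 55.2% in the mESC libraries and 54.4% and 53.7% in the PILEC libraries, and among lincRNA promoters within 5 kb it was higher in both PILEC libraries than in the mESC library of the same genotype.

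**Figure D1:**
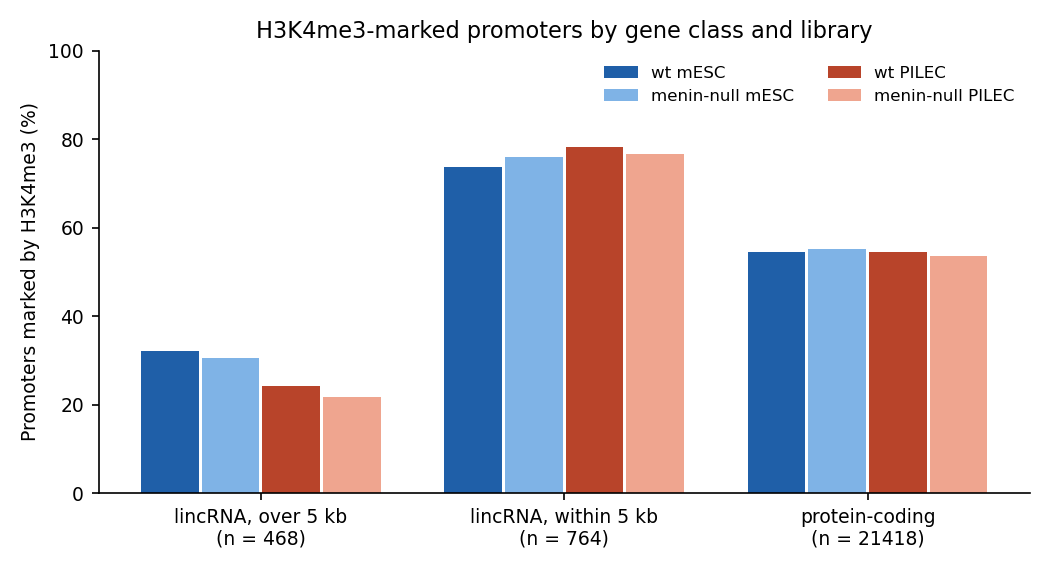
Share of promoters marked by H3K4me3 (vertical axis, percent) in 3 classes of autosomal genes, with 1 bar for each of the 4 H3K4me3 libraries and no replicates. The lincRNA promoters over 5 kb from a protein-coding TSS stand at 32.1% and 30.6% in the mESC libraries and at 24.1% and 21.8% in the PILEC libraries, below both other classes shown.

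The marked lincRNA promoters were lower at the median than marked protein-coding promoters in all 4 libraries. The median level of marked lincRNA promoters was 14.8 RPM in wt and 15.4 RPM in menin-null mESCs, and 20.03 RPM in wt and 21.2 RPM in menin-null PILECs, against 31.7, 37.2, 32.9 and 30.6 RPM for protein-coding promoters in the same order. These medians cover different promoters in each library, and at the 79 lincRNA promoters marked in all 4 libraries they were 23.8, 23.03, 26.3 and 23.4 RPM. Over all 468 the median was 2.06, 1.71, 0.852 and 0.848 RPM in the same order, against input medians of 1.41, 1.34, 0.999 and 0.993 RPM. The mESC inputs were thus also higher than the PILEC inputs in the same windows. Between 3 and 5 RPM, near the limit for a mark, lay 38 promoters in each mESC library and 25 in each PILEC library.

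Of the 468 promoters 181 were marked in at least 1 library and 287 in none. All 4 libraries marked 79, both mESC libraries alone marked 40, both PILEC libraries alone marked 8, and 54 had another combination. The first 3 patterns thus made up 16.9%, 8.55% and 1.71% of these promoters, against 67.8%, 2.09% and 2.75% of lincRNA promoters within 5 kb of a protein-coding TSS and 50.1%, 2.14% and 1.36% of protein-coding promoters. Of the 287, 6 reached 4 RPM in at least 1 library at another annotated start of the same gene. No tag was found in any of the 8 libraries at 5 promoters.

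The 79 promoters marked in every library were mostly CpG-rich, and those marked in mESCs alone mostly were not. CpG-rich here means a G and C content above 50% and an observed over expected CpG ratio above 0.6 within 500 bp of the 5′ end. That held for 49 of the 79 (62.0%), with a median CpG ratio of 0.686, for 8 of the 40 (20%) marked in mESCs alone, with a median of 0.398, and for 4 of the 287 (1.39%) marked nowhere, with a median of 0.245. Of the 8 marked in PILECs alone 1 (12.5%) was CpG-rich, and of the 54 with another combination 15 (27.8%) were. Protein-coding promoters were CpG-rich in 83.6% of cases when marked in all 4 libraries. Their share was 34.4% when marked in mESCs alone, 16.5% in PILECs alone and 1.60% nowhere. A position inside a protein-coding gene went the other way, with 2 of the 79, 6 of the 40 and 117 of the 287.

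The share marked showed no steady order with distance from protein-coding genes beyond the limit of 5 kb. In wt mESCs 31 of 102 promoters (30.4%) between 5 and 10 kb away were marked, 41 of 122 (33.6%) between 20 and 50 kb, and 19 of 58 (32.8%) beyond 100 kb. Over the 5 bands, split at 10, 20, 50 and 100 kb, the share lay between 30.4% and 33.6% in wt and 27.7% and 32.6% in menin-null mESCs. It ranged more widely in PILECs, from 20.7% (10 to 20 kb) to 29.3% (beyond 100 kb) in wt and from 15.96% (50 to 100 kb) to 29.3% (beyond 100 kb) in menin-null cells. Of the 136 promoters inside a protein-coding gene 9.56% were marked in wt mESCs, and of the 332 outside 41.3% were.

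At the promoters marked in all 4 libraries and those marked in mESCs alone, tags gathered at the median downstream of the annotated 5′ end. Among the 79 promoters marked in all 4 libraries the mean profile peaked in the 100-bp bin centred 150 bp downstream in every H3K4me3 library, at 2.90 (wt) and 3.64 (menin-null) RPM per 100 bp in mESCs and 3.05 and 3.02 in PILECs, while no input bin exceeded 0.188. The 40 promoters marked in mESCs alone peaked in the same bin in both mESC libraries, at 1.58 and 1.36 RPM per 100 bp. In PILECs they kept a peak of 0.177 in wt and 0.180 in menin-null cells, against at most 0.0745 in the PILEC inputs. The median share of tags on the downstream side was 70.1% for the 79, with a lower quartile of 44.2%, and 71.5% for the 40. It was 45.2% for the 8 promoters marked in PILECs alone and 51.8% for the 287 marked nowhere. Protein-coding promoters marked in all 4 libraries had 78.8%. LincRNA promoters within 5 kb of a protein-coding TSS that were marked in all 4 had 37.4%, and their median distance to that TSS was 0.194 kb.

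**Figure D2:**
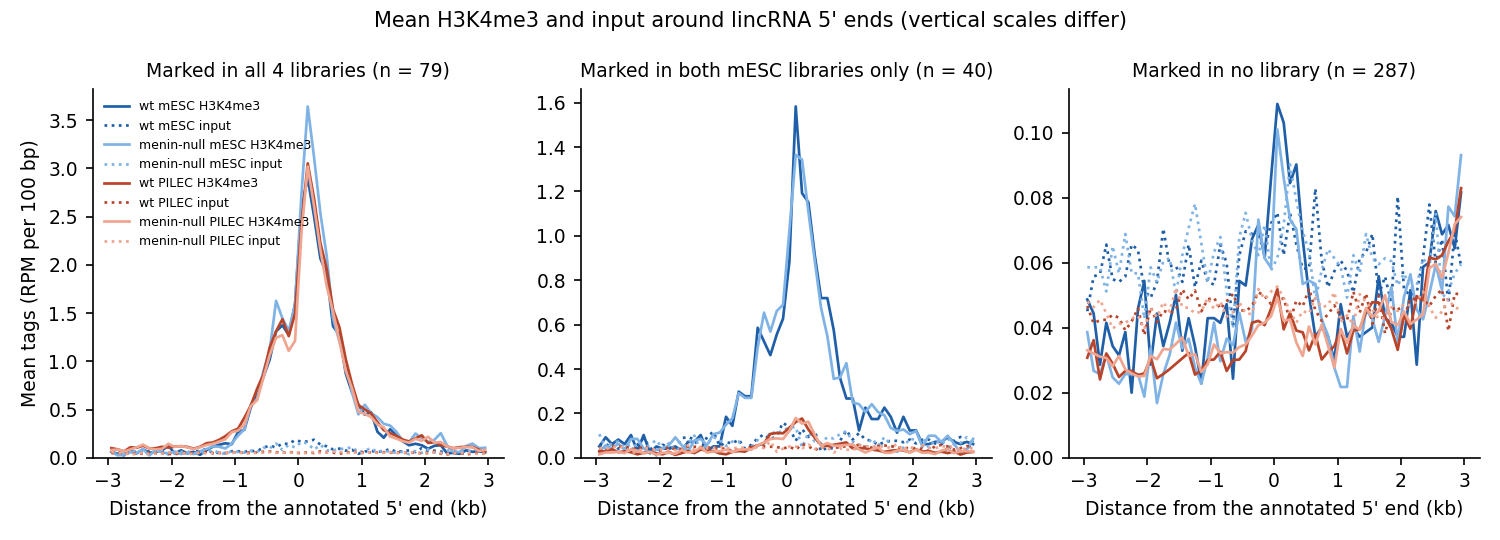
Mean tags (RPM per 100 bp, vertical axis, on a different scale in each panel) against distance from the annotated 5′ end (kb), for lincRNA promoters marked in all 4 libraries (n = 79), in both mESC libraries only (n = 40) and in none (n = 287), with H3K4me3 as solid and input as dotted lines. The 4 H3K4me3 lines share their highest bin, 150 bp downstream, in the first panel, where the menin-null mESC line is the highest at 3.64, and the PILEC lines lie far below the mESC lines in the second.

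The stage comparison asked how the mark differed between stem cells and their differentiated products. Ratios are log2 of PILEC over mESC RPM with 0.5 RPM added to both, which understates large differences, and the 95% interval is the exact conditional binomial interval of the plain count ratio. A promoter was called when both libraries together held at least 10 tags, the ratio was at least 2-fold and the interval excluded no difference. In wt cells 383 of the 468 promoters had the tags, of which 108 were lower in PILECs (28.2%, against 12.0% of all promoters tested) and 24 higher (6.27%, against 4.78%). In menin-null cells 398 had the tags, of which 117 were lower (29.4%, against 17.4%) and 25 higher (6.28%, against 3.74%). The median log2 ratio of the members with enough tags was -0.35 in wt and -0.27 in menin-null cells, and that of all promoters tested was -0.02 and -0.20. With every library thinned to the smallest, the medians were -0.63 and -0.80 over the members that still had 10 tags. With no minimum of tags they were -0.19 and -0.19. Both settings thus cover other sets of members than the reported medians. Scaling by tags at protein-coding promoters took the reported medians to -0.31 and 0.03.

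Part of the lower calls lay at low levels, and the inputs differed the same way. Of the 108 lower in wt PILECs, 63 had been marked in wt mESCs, and of the 117 in menin-null cells 70. At the 108 the median H3K4me3 level was 7.40 RPM in wt mESCs and 1.12 RPM in wt PILECs, and the input medians were 1.88 and 0.999 RPM. Subtracting the input of the same window left 103 lower and 24 higher in wt cells and 110 lower and 27 higher in menin-null cells, but took the median log2 ratio over members to 0.00 and -0.04. The intervals for these calls were still those of the unsubtracted counts. Negative levels were cut off, which gives no difference where both libraries lay below their inputs and bears on these medians. Dividing by the input ratio within 50 kb took the median log2 ratio to -0.01 and 0.01, with 86 and 87 lower. The part of the inputs in the result was not otherwise tested.

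The calls of the 2 genotypes overlapped. Of those called lower, 90 were lower in both, which is 83.3% of the wt calls and 76.9% of the menin-null calls, and 16 were higher in both, 66.7% and 64.0%. Over all promoters the shares were 79.8% and 53.8% for lower and 55.3% and 69.5% for higher calls. No lincRNA promoter was called in opposite directions. Such calls were rare in general: of 19246 promoters of all types tested in both, 3 were higher in wt and lower in menin-null cells, and 1 was the reverse. The 2 stage comparisons share no library.

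Retention of the mark differed between the classes of genes. Of the 150 lincRNA promoters marked in wt mESCs 91 (60.7%) were marked in wt PILECs, and of the 143 in menin-null mESCs 87 (60.8%) were in menin-null PILECs. For lincRNA promoters within 5 kb of a protein-coding TSS the shares were 95.9% and 94.1%, and for protein-coding promoters 94.4% and 93.3%. Seen from PILECs, 91 of 113 marked promoters (80.5%) were marked in wt mESCs and 87 of 102 (85.3%) in menin-null mESCs. The marked lincRNA promoters also started from a lower level, with a median of 14.8 RPM in wt mESCs against 29.6 RPM within 5 kb and 31.7 RPM for protein-coding promoters, and they were picked here by the mESC library of the same comparison, so that no test was made.

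**Figure D3:**
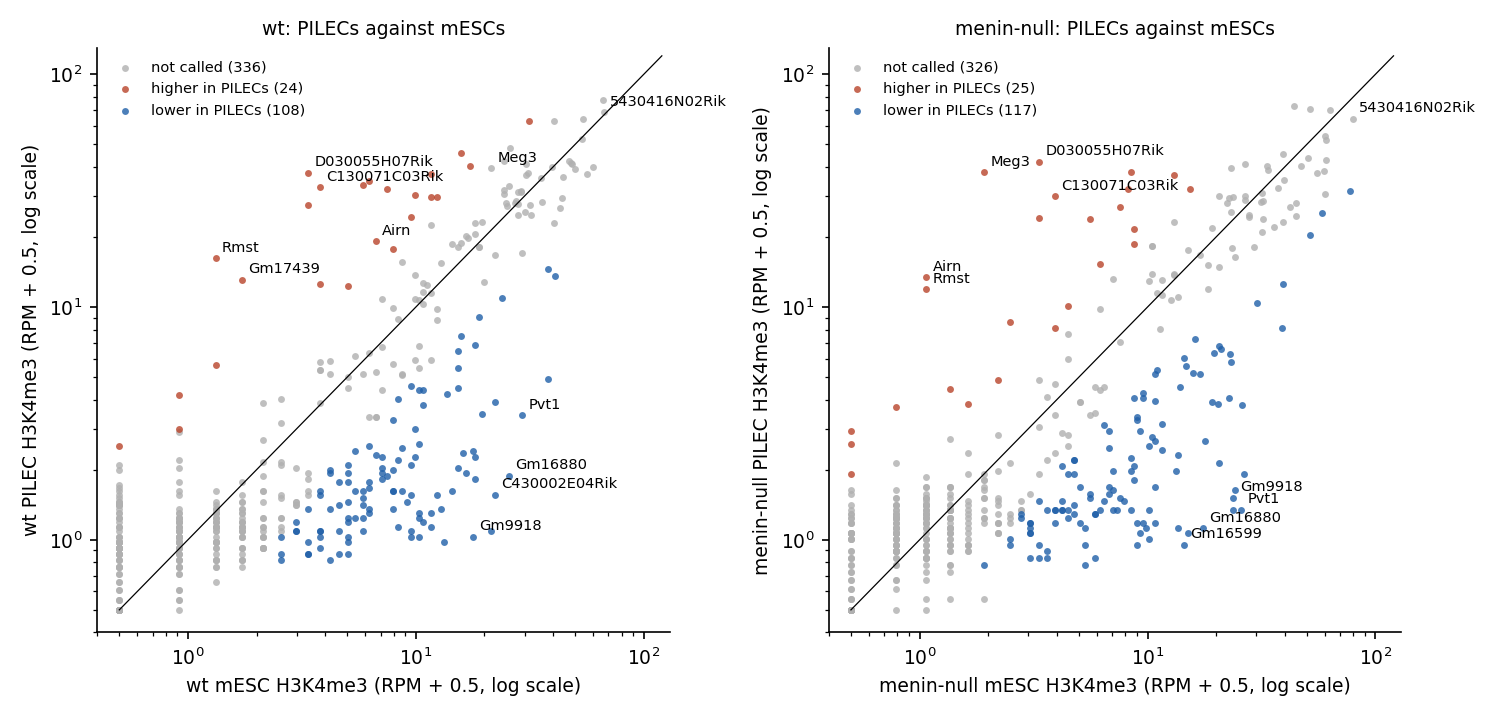
H3K4me3 at the 468 lincRNA promoters in mESCs (horizontal axis) against PILECs (vertical axis), as RPM + 0.5 on log scales, for wt (left) and menin-null cells (right), 1 point a promoter, with the line of equality. Promoters called lower in PILECs number 108 and 117 and those called higher 24 and 25, and Meg3 and Airn lie much farther to the left in the menin-null panel.

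Of the 8 promoters marked in both PILEC libraries and neither mESC library, a share between those of the other classes, 5 were the promoters with the highest wt PILEC over mESC ratios. They were picked by the same libraries, so their order between the stages is no separate evidence. Rmst, a noncoding RNA known for a part in the formation of neurons, had 2 (wt) and 2 (menin-null) tags in mESCs and 296 and 202 in PILECs, or 0.822, 0.569, 15.8 and 11.4 RPM. Both PILEC libraries lay above both mESC libraries, which were at the level of their inputs. Its log2 ratio was 3.62 (interval 2.40 to 7.31) in wt and 3.48 (2.46 to 7.38) in menin-null cells. Gm17341, on the other strand with its 5′ end 3075 bp from that of Rmst, had 7, 10, 506 and 419 tags in the same order and a log2 ratio of 3.02 in wt cells. The windows of this pair do not overlap, but they share 1 locus.

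D030055H07Rik had 7, 10, 701 and 736 tags (2.88, 2.84, 37.3 and 41.6 RPM), with log2 ratios of 3.49 (2.65 to 5.02) in wt and 3.66 (2.98 to 4.94) in menin-null cells. C130071C03Rik, a neural lincRNA gene that hosts a microRNA of the miR-9 family, had 8, 12, 606 and 520 tags (3.29, 3.41, 32.3 and 29.4 RPM), with log2 ratios of 3.11 (2.31 to 4.51) and 2.93 (2.29 to 4.07). Gm17439 had 3, 7, 237 and 144 tags and log2 ratios of 2.92 (1.79 to 5.64) and 1.80 (0.95 to 3.37). In each of these the 2 PILEC libraries lay above the 2 mESC libraries with no overlap, an order that their choice by these libraries favours. The other 3 of the 8, Gpr137b-ps, Gm12676 and Gm17589, named after their values were seen, reached 5.38 to 11.8 RPM in wt PILECs and were already at 3.41 to 6.58 RPM in the mESC libraries. In wt mESCs Gm12676 (4.52 RPM) and Gm17589 (6.58 RPM) were above the 4 RPM limit and went unmarked since they stood at 1.76 and 2.29 times their input.

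The promoters with the lowest PILEC over mESC ratios were marked in both mESC libraries and in neither PILEC library. Gm9918 had 42 (wt) and 82 (menin-null) tags in mESCs and 10 and 18 in PILECs, or 17.3, 23.3, 0.533 and 1.02 RPM, the last 2 near the input. Its log2 ratio was -4.10 (-6.18 to -4.00) in wt and -3.97 (-5.34 to -3.77) in menin-null cells. Gm16997 had 51, 82, 11 and 15 tags, with log2 ratios of -4.31 and -4.14. C430002E04Rik had 53, 83, 20 and 20 tags and Gm16880 61, 60, 26 and 11 tags, with log2 ratios of -3.83 and -3.76 in wt and of -3.89 and -3.97 in menin-null cells. F630040L22Rik, antisense to Bsn, had 31, 46, 9 and 11 tags and a log2 ratio of -3.76 in wt cells. Gm16599, antisense to Cux1, had 30, 49, 16 and 8 tags and a log2 ratio of -3.92 in menin-null cells. All 6 lay between 12.3 and 25.1 RPM in the mESC libraries and between 0.452 and 1.39 RPM in the PILEC libraries, and 2 of them, Gm16997 and Gm16599, were CpG-rich.

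The nearest protein-coding promoter was lower at a minority of the lower lincRNA promoters. Of the 100 promoters lower in wt PILECs whose nearest protein-coding promoter could be tested, 9 had a neighbour that was lower too, and of the 234 not called 23 had. In menin-null cells the counts were 24 of 103 (23.3%) and 45 of 239 (18.8%). Beside the higher lincRNA promoters 2 of 21 neighbours (9.52%) were higher in wt and 3 of 22 (13.6%) in menin-null cells. Beside those not called, 18 of 234 (7.69%) and 12 of 239 (5.02%) were higher. The median log2 ratio of the neighbours in wt cells was -0.35 beside the lower, 0.25 beside the 21 higher and -0.08 beside the uncalled lincRNA promoters, and in menin-null cells -0.34, 0.12 (22 higher) and -0.30. Across the 355 pairs in wt cells, which share the same 2 libraries and in part the same neighbours, Pearson's r of the 2 log2 ratios was 0.198, and across the 364 pairs in menin-null cells it was 0.148, both given as a description.

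The genotype comparison asked which lincRNA promoters differed between menin-null and wt cells of the same stage. In mESCs 240 of the 468 had enough tags, of which 3 were higher in menin-null cells (1.25%, against 0.793% of all promoters tested) and 8 lower (3.33%, against 0.793%). In PILECs 440 had enough, of which 1 was higher (0.227%, against 0.288%) and 5 lower (1.14%, against 0.576%). Among processed-transcript promoters tested in mESCs 1.14% were higher and 2.11% lower, and among lincRNA promoters within 5 kb 0.751% and 0.901%. In PILECs the shares of these classes were 0.346% and 0.865%, and 0.265% and 0.926%. Some of the lower calls in mESCs rest on few tags, as given below. Subtracting the input, an alternative chosen after seeing the data, gave 4 higher and 18 lower in PILECs, with intervals still from the unsubtracted counts. A 3-fold limit gave 0 and 1. The median log2 ratio of members was 0.03 in mESCs and -0.04 in PILECs, and of all promoters 0.22 and -0.06. Scaling by the tags at protein-coding promoters instead of all tags shifts the plain log2 count ratio by -0.26 in mESCs, with 1 higher and 16 lower. In the menin-null stage comparison the shift is 0.39, with 39 higher and 95 lower. The 0.5 RPM added makes the shift of a reported ratio depend on its level. None of the 240 lincRNA promoters tested in both stages was called in both, and of the 15002 promoters of all types tested in both, 1 was higher, 3 were lower and 2 were called in opposite directions.

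Meg3, the maternally expressed noncoding RNA of the imprinted Dlk1-Meg3 locus (gene at chr12:110779211-110809936, plus strand), had the lowest ratio. It held 51 (wt) and 5 (menin-null) tags in mESCs and 733 and 665 in PILECs, or 21.0, 1.42, 39.0 and 37.6 RPM. The menin-null mESC library alone was low, at about the level of its input, and the 2 PILEC libraries lay close together. In mESCs the log2 ratio was -3.48 (-5.57 to -2.57) and in PILECs -0.05 (-0.21 to 0.10). The input itself was also lower there in menin-null mESCs, by a log2 ratio of -1.42 over the 50 kb either side, against -0.06 in PILECs. Divided by that input ratio, the mESC log2 ratio was -2.07 and remained called. Mirg, the microRNA host at the far end of the same locus, had 2, 0, 16 and 13 tags and was marked nowhere. The 0 tags in menin-null mESCs allow up to 0.853 RPM.

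Meg3 was 1 of 11 members with such a lower local input in menin-null mESCs (log2 below -0.5), 9 of them on chromosome 12. Of these 11, 5 had enough tags for the comparison, with a median log2 ratio of -0.72, and Meg3 alone was called. Without the 11, 7 promoters were lower and 3 higher. On chromosome 8, where the local input of the 23 members was higher in menin-null mESCs by a median log2 ratio of 0.18, 9 were tested, with a median of 0.04, and none was called.

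Airn, the paternally expressed antisense RNA that starts in an intron of Igf2r and silences that gene in cis (gene at chr17:12934177-13052988, plus strand), had 15, 2, 350 and 229 tags in the same order, or 6.17, 0.569, 18.6 and 13.0 RPM. The menin-null mESC library was again the lowest and the 2 PILEC libraries the highest. In mESCs the log2 ratio was -2.64 (-6.61 to -1.33) and in PILECs -0.51 (-0.77 to -0.28), the second not called since it is under 2-fold. The local input ratio in mESCs was -0.08. Its stage log2 ratio was 1.52 (0.85 to 2.45) in wt and 3.65 (2.64 to 7.56) in menin-null cells, and that of Meg3 was 0.88 (0.49 to 1.34) and 4.31 (3.5 to 6.35). These stage ratios use the same mESC libraries as the genotype ratios and are not separate evidence.

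The other 6 promoters lower in menin-null mESCs had log2 ratios from -1.63 to -1.09. 3010027C24Rik had 9 and 3 tags in wt and menin-null mESCs, Gm17717 had 11 and 4 and A630075F10Rik 11 and 5, with log2 ratios of -1.63 (-4.64 to -0.11), -1.62 (-4.10 to -0.24) and -1.39 (-3.55 to -0.03). 4930412L05Rik, Gm17470 and Gm11019, named after their values were seen, had 20 and 12, 36 and 23, and 22 and 14 tags, with log2 ratios of -1.16, -1.12 and -1.09. Of the 8 lower promoters 5 were marked in wt mESCs and 1 was CpG-rich. A630075F10Rik lost its call with a window of 2 kb either side, where its ratio of -1.19 still passed 2-fold but the interval reached no difference, and counting 1 tag per position and strand gave 4 lower promoters in all.

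Higher in menin-null mESCs was first of all Gm13110, with 18 (wt) and 91 (menin-null) tags in mESCs and 21 and 25 in PILECs, or 7.40, 25.9, 1.12 and 1.41 RPM. The menin-null mESC library stood above the other 3, and both PILEC libraries were near their inputs. The log2 ratio was 1.74 (1.07 to 2.62) in mESCs. Gm16754 had 7 and 28 tags and Gm17287 11 and 36 tags in wt and menin-null mESCs, with log2 ratios of 1.32 (0.24 to 2.91) and 1.10 (0.17 to 2.30). Both of these lost the call with a window of 2 kb either side, when the deeper library was thinned and when scaled by protein-coding promoters. Over all alternatives their log2 ratios were at lowest 0.877 and 0.854.

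In PILECs 5 promoters were lower in menin-null cells, with log2 ratios from -1.82 to -1.05. Pvt1, the noncoding neighbour of Myc (gene at chr15:61869542-62209651, plus strand), had 70 (wt) and 89 (menin-null) tags in mESCs and 55 and 15 in PILECs, or 28.8, 25.3, 2.93 and 0.848 RPM. Both mESC libraries were high and overlapped in their intervals, and both PILEC libraries fell under the limit for a mark. In mESCs the genotype log2 ratio was -0.18 (-0.65 to 0.29) and in PILECs -1.35 (-2.72 to -0.94), and the stage log2 ratio was -3.09 (-3.83 to -2.77) in wt and -4.26 (-5.80 to -4.10) in menin-null cells. The genotype call in PILECs was lost with a window of 2 kb either side (-0.82) and when the library was thinned (-0.56). 8430419K02Rik had 5, 4, 50 and 7 tags, so it was too low for the mESC comparison, and its PILEC log2 ratio was -1.82 (-4.14 to -1.60), or -0.99 and not called at the annotated start with the most tags.

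4930578M01Rik had 25, 32, 184 and 67 tags, Gm16790 had 25, 37, 209 and 86 tags and D130017N08Rik had 24, 30, 118 and 49 tags. In these 3 the wt and menin-null mESC libraries and the wt PILEC library lay between 6.29 and 11.1 RPM and the menin-null PILEC library between 2.77 and 4.86 RPM. Their PILEC log2 ratios were -1.26 (-1.80 to -0.96), -1.12 (-1.57 to -0.83) and -1.05 (-1.69 to -0.69), the last of which fell short of 2-fold with a window of 2 kb either side, with 1 RPM added and when scaled by protein-coding promoters. Gm16790 also fell short of 2-fold at the smallest of its ratios over the alternatives (-0.84), and 4930578M01Rik did not (-1.17). Gm12784 was the 1 promoter higher in menin-null PILECs, with 42, 80, 36 and 94 tags (17.3, 22.7, 1.92 and 5.32 RPM) and a log2 ratio of 1.27 (0.90 to 2.07). It was lower in PILECs than in mESCs in both genotypes, with stage log2 ratios of -2.88 in wt and -2.0 in menin-null cells.

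**Figure D4:**
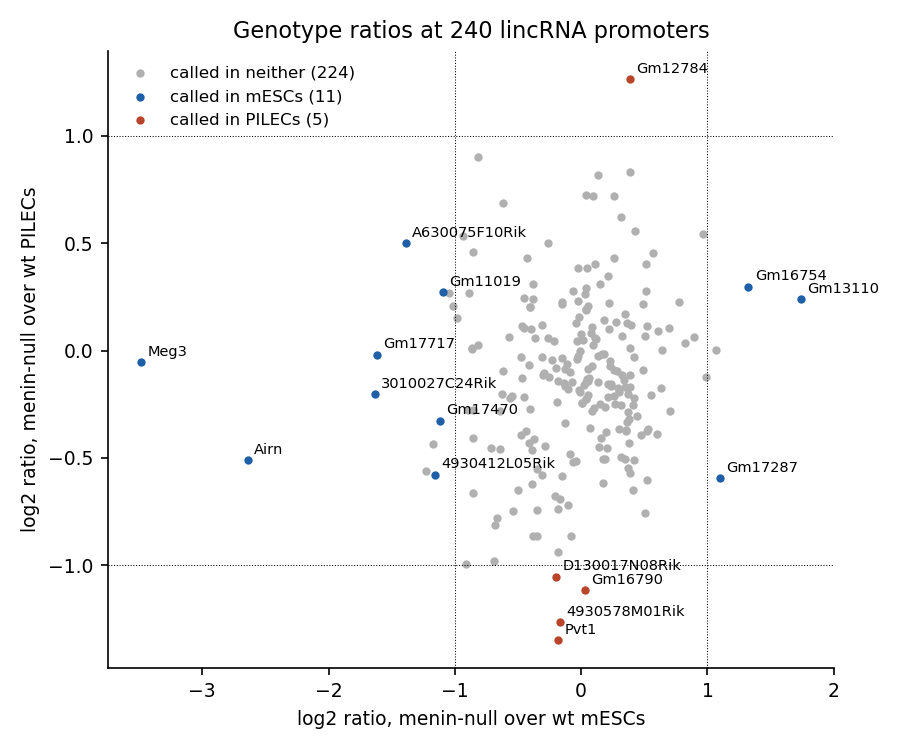
Log2 ratio of menin-null over wt H3K4me3 in mESCs (horizontal axis) against that in PILECs (vertical axis) at the 240 lincRNA promoters with at least 10 tags in both comparisons, 1 point a promoter, with dotted lines at 2-fold. The 11 promoters called in mESCs and the 5 of the 6 called in PILECs that had enough tags in mESCs do not coincide, and Meg3 and Airn lie farthest to the left.

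Most promoters marked in 1 genotype of a stage were marked in the other too. In mESCs 127 promoters were marked in both genotypes, 23 in wt only and 16 in menin-null only. The 127 were 76.5% of the promoters marked in either, against 92.6% over all promoters. The 23 had medians of 6.99 RPM in wt and 4.55 RPM in menin-null mESCs, and 5 of them were called lower. The 16 had medians of 5.76 RPM in wt and 8.53 RPM in menin-null mESCs, and 3 of them were called higher. Of these 2 sets 9 of the 23 and 4 of the 16 stayed under 6 RPM in both libraries. In PILECs 98 were marked in both (83.8% of those marked in either, against 97.0% over all promoters), 15 in wt only and 4 in menin-null only, and 13 of the 15 and 3 of the 4 stayed under 6 RPM in both libraries. Across stage the 59 promoters marked in wt mESCs and not in wt PILECs had medians of 9.46 and 1.38 RPM, and 54 of them were called lower. These sets were picked by the libraries compared, so the direction of their calls is no separate evidence.

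Well-known lincRNAs were taken from lists of imprinted, nuclear and general, neural and developmental and Hox-locus noncoding RNAs and of small RNA hosts. Of the imprinted list of 12 symbols 3 were members, Meg3, Airn and Mirg, 2 of them marked. Of the 11 nuclear and general symbols 4 were members, and all 4 were marked in at least 1 library. Of the 14 neural and developmental symbols 4 were members, 2 of them marked, and none of the 3 Hox-locus symbols was. The 4 Snhg genes that were members were all marked. Among all 468 members 181 were marked in at least 1 library. The lists were chosen with earlier results of these data known, so these counts are a description.

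Of the 4 nuclear and general members, Dleu2 and 1700020I14Rik had no called ratio in any comparison, and Miat and Pvt1 had called ratios between the stages. Dleu2, a host of the microRNAs miR-15a and miR-16, had 116, 177, 765 and 764 tags (47.7, 50.3, 40.7 and 43.2 RPM), and all 4 of its log2 ratios lay between -0.22 and 0.08. 1700020I14Rik, also called Cyrano, had 74, 164, 699 and 703 tags (30.4, 46.6, 37.2 and 39.8 RPM), with a genotype log2 ratio of 0.61 (0.21 to 1.03) in mESCs, under 2-fold. Miat, a nuclear RNA abundant in neurons, had 27, 52, 548 and 562 tags (11.1, 14.8, 29.2 and 31.8 RPM) and was higher in PILECs, with stage log2 ratios of 1.36 (0.84 to 2.01) in wt and 1.08 (0.69 to 1.54) in menin-null cells, the second 0.92 with 1 tag per position and strand.

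Of the neural list, Rmst and C130071C03Rik were marked in PILECs as given above. Sox2ot, which overlaps the pluripotency and neural gene Sox2, was marked nowhere at its annotated 5′ end, with 1, 1, 29 and 29 tags (0.411, 0.284, 1.54 and 1.64 RPM) against 0, 3, 14 and 23 input tags. A330076H08Rik had 1, 0, 47 and 37 tags and was marked nowhere. Its stage calls were lost when the libraries were thinned. Over all alternatives its stage log2 ratio ranged from 0.816 to 2.00 in wt and from 1.37 to 2.76 in menin-null cells. Its menin-null PILEC level of 2.09 RPM was 2.45 times the 0.853 RPM that 0 tags allow in menin-null mESCs. That value leaves out the counting error of the 37 PILEC tags and is not a lower limit. Summed levels of neural marker promoters are given above, and their part in these values was not tested.

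The 4 Snhg genes, whose introns hold small nucleolar RNAs, were marked, and Snhg4 was lower in PILECs. Snhg5 had 129, 212, 984 and 917 tags (53.0, 60.3, 52.4 and 51.9 RPM) and Snhg7 106, 138, 668 and 614 tags (43.6, 39.2, 35.6 and 34.7 RPM), none of their ratios reaching 2-fold. Snhg12 had 136, 209, 688 and 532 tags (55.9, 59.4, 36.6 and 30.1 RPM), with stage log2 ratios of -0.60 and -0.97, not called, although the second passed 2-fold (-1.23) with a window of 2 kb either side. Snhg4 alone was called, with 91, 137, 264 and 214 tags (37.4, 39.0, 14.1 and 12.1 RPM) and stage log2 ratios of -1.38 (-1.76 to -1.05) in wt and -1.65 (-2.0 to -1.37) in menin-null cells.

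The 5 promoters with the highest mean level were 5430416N02Rik, 2410006H16Rik, Gm10492, 4833417C18Rik and Snhg5. 5430416N02Rik had 161, 279, 1279 and 1132 tags (66.2, 79.3, 68.1 and 64.0 RPM) and 2410006H16Rik 160, 220, 1452 and 1236 tags (65.8, 62.6, 77.3 and 69.9 RPM). Gm10492 had 130, 209, 1202 and 951 tags and, alone of the 5, was not CpG-rich, with a CpG ratio of 0.350. 4833417C18Rik had 97, 179, 1174 and 1247 tags (39.9, 50.9, 62.5 and 70.5 RPM), with stage log2 ratios of 0.64 (0.35 to 0.96) and 0.47 (0.24 to 0.70), under 2-fold. None of the 5 was called in any of the 4 comparisons.

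**Figure D5:**
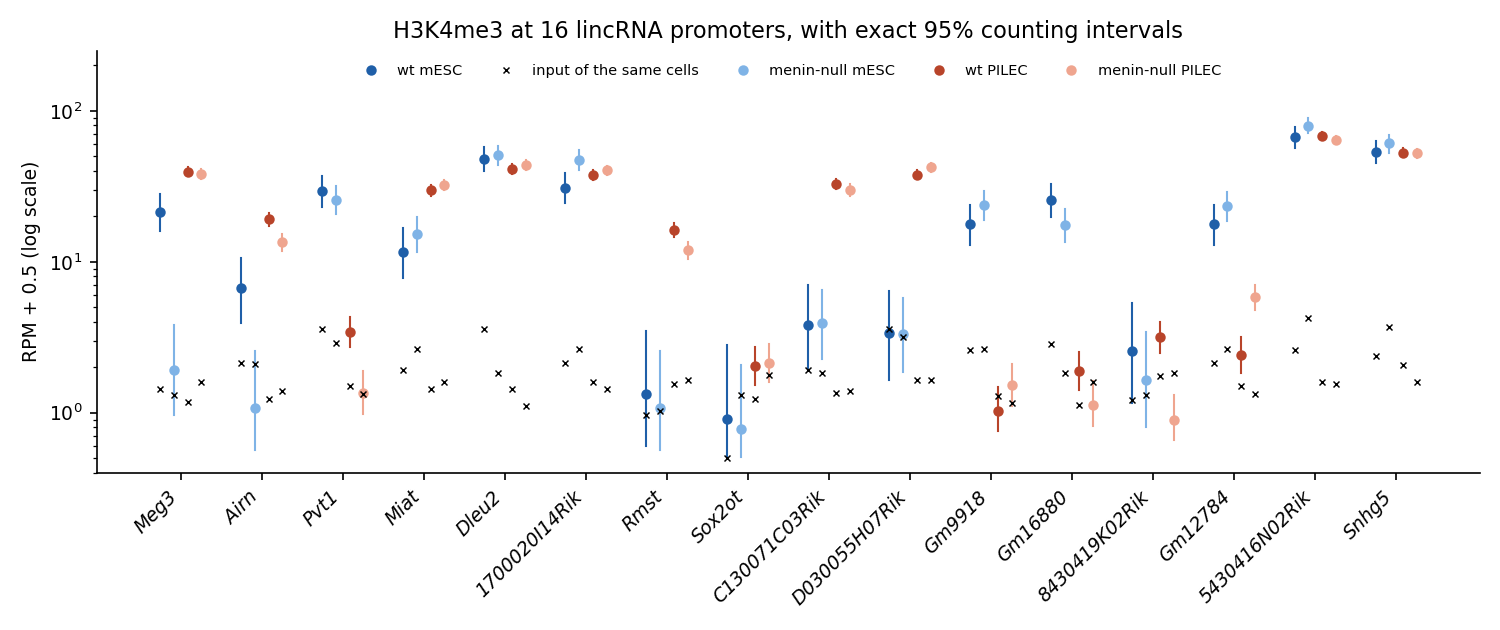
H3K4me3 (circles, RPM + 0.5 on a log scale) at 16 named lincRNA promoters in the 4 libraries, with exact 95% counting intervals as vertical lines and the input of the same cells as crosses. Meg3 and Airn are lowest in the menin-null mESC library, Rmst, C130071C03Rik and D030055H07Rik are high in both PILEC libraries, and Gm9918, Gm16880 and Pvt1 in both mESC libraries.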

How the data were processed

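Chromatin from wt and menin-null mESCs and PILECs was immunoprecipitated for H3K4me3 or kept as input and sequenced as 36-bp single reads, 1 library per condition and kind, 8 in all. The authors placed reads uniquely on mm9 with at most 2 mismatches, per the study's methods, and deposited 1 position per tag (other columns hold the strand and the tag's letters). The deposited score column is a placeholder and was not used. The aligner's version is not given in the sources used here. Some deposited tags, 1.04% to 1.81% per library, differ from the genome at over 2 bases. The build was checked on chromosome 19 of the menin-null mESC H3K4me3 library alone. At 11885 of 11885 tags with 1 mismatch there the recorded letter equalled the mm9 base. With 1 library per condition no p-value is given.

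Each tag was shifted by 125 bp towards the fragment's centre (fragments averaged 250 bp), counted within 1 kb of 5′ ends of a GENCODE annotation of the same build, and scaled to RPM by all tags of the library. Tags repeating a position and strand made up 1.77% to 11.5% of a library and were kept. In the H3K4me3 libraries they made up 11.4% (wt) and 4.17% (menin-null) in mESCs, and 11.5% and 11.4% in PILECs. Marks, ratios and calls follow the rules given with the results, and intervals are exact Clopper-Pearson intervals of the count ratio (95%), which cover counting error only. The smallest H3K4me3 library, of 2432377 tags, puts 3 tags at 1.23 RPM, and the deepest at 0.160 RPM. The calling function was tested on simulated counts with counting error alone. That test does not cover repeated tags or differences between cultures.

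Named members were those in the lists, the 5 with the largest called ratio each way in every comparison, the 5 with the highest mean RPM, and any called in opposite genotype directions. Members and lists were chosen with earlier results of these data known. Alternatives tried were the window, tag shift, repeated tags, mismatches, depth, distance, start site, thresholds, scaling and use of the input. Computations used Python 3.11.15, numpy 2.4.6, pandas 2.3.3, scipy 1.17.1 and matplotlib 3.10.9.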

Additional observations from a re-analysis of the deposited data

How the results depend on the processing

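Each count was recomputed under 9 to 15 alternatives. Of 150 recomputed counts 130 stayed within 1.5 times the reported one and 20 did not. The marked counts all stayed within it, ranging in mESCs over 118 to 188 (wt) and 112 to 169 (menin-null) and in PILECs over 91 to 118 and 80 to 107. A window of 2 kb either side gave 1 promoter higher in menin-null mESCs and, in menin-null PILECs, 2 higher and 3 lower. One tag per position and strand gave 4 lower in menin-null mESCs, and thinning every library to the smallest gave 1 higher. Scaling by tags at protein-coding promoters gave 1 higher and 16 lower in menin-null mESCs and 39 higher in menin-null PILECs over mESCs. A 3-fold limit gave 1 higher and 4 lower in menin-null mESCs, 0 higher and 1 lower in menin-null PILECs, 15 higher in wt PILECs over mESCs and 16 in menin-null ones. Over the alternatives the median log2 ratio of PILECs over mESCs moved by 0.1 or more in the settings that follow. It was -0.63 in wt and -0.80 in menin-null cells when libraries were thinned, and -0.19 in wt cells with no minimum of tags. These medians cover other sets of members than the reported ones. Scaling by protein-coding promoters gave 0.031 in menin-null cells, and the local input ratio gave -0.0116 and 0.0090. The median of menin-null over wt mESCs moved as far with the promoter scaling (-0.21).

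The remaining alternatives were chosen after seeing the data. Input subtraction, with intervals still from the unsubtracted counts and negative levels cut off, gave 4 higher and 18 lower in menin-null PILECs and stage medians of 0.00 (wt) and -0.0356 (menin-null). Counting calls only where the higher library was marked gave 5 lower in menin-null mESCs, 3 lower in menin-null PILECs, and 63 and 70 lower in wt and menin-null PILECs over mESCs. The cause of these changes was not tested, beyond the stricter rules themselves leaving fewer promoters.

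Of 60 called ratios of named promoters none reversed under any alternative, 46 stayed called when libraries were thinned to the smallest and 52 with the wider window. For Meg3 in mESCs the log2 ratio ranged from -4.20 to -2.07 and for Airn from -3.33 to -1.72, both called throughout where tested. Dividing by the local input added a call for Meg3 between wt PILECs and wt mESCs, at 1.57. No paired analysis was possible because each condition has 1 library and no replicate numbers. The wt mESC library sets what depth can show: 240 of the 468 promoters had enough tags for the genotype comparison in mESCs.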
